A study of Mus musculus with 6 samples.

Results

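Heat shock proteins and chaperones were read as 67 genes, out of 8511 genes named by a probe set with a single symbol on the arrays used. A gene belonged to the set if its symbol starts with Hsp followed by a, b, d, e, h or a digit (Hspg is not included), Dnaj, Cct followed by a digit, or Fkbp, and Tcp1 was added. The rule reads symbols alone. The 67 genes have 157 of the 18364 single-symbol probe sets and were put into families by symbol. These are 27 DNAJ (HSP40) genes, 11 HSP70 and HSP110 genes, 11 FKBP genes and 9 CCT chaperonin genes (Tcp1 included). The rest are 4 genes named Hspb and a digit, read as small HSP, 2 HSP90 genes, 2 genes of the HSP60 and HSP10 chaperonin, and Hspbp1.

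The samples were double-positive thymocytes, the CD4+CD8+ stage through which developing alpha-beta T cells pass, sorted by flow cytometry and lysed at once. One group came from C57BL/6 mice with a Sox13 transgene and the other from their wild-type littermates, all female and 6 weeks old, with thymocytes of at least 2 mice pooled for a sort. What drives the transgene, and how many founder lines there were, is not given in the sources used here. Experiment 1 used a pair of Affymetrix arrays with different content (Mu11K A and Mu11K B) and experiment 2 the U74A array, with 1 transgenic and 1 wild-type sample on each array type. There are thus 6 arrays and n = 2 experiments. Sox13 codes for an HMG-box transcription factor, and the study asked whether it can impose the molecular program of another T cell lineage on these cells.

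Chaperones bind unfolded or partly folded proteins. HSP70 proteins hold short hydrophobic stretches in an ATP-driven cycle, which DNAJ proteins start by stimulating ATP hydrolysis and which HSP110 proteins and other exchange factors reset by releasing ADP. HSP90 then acts on nearly mature clients such as kinases and steroid receptors, FKBP proteins are proline isomerases of which some work with HSP90, and the ring-shaped CCT and HSP60 chaperonins enclose their clients. Heat shock factor 1 switches on many of these genes under heat or proteotoxic stress, and a separate response raises those of the endoplasmic reticulum (ER) when folding fails there.

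Values are intensities scaled so that the 2% trimmed mean of an array is 500. Anything below 100, the floor, was raised to it, so the fold is a lower bound where 1 sample was at the floor, and is then written "at least". Each ratio is transgenic over wild type on the log2 scale, averaged over the probe sets of a gene in an experiment. Levels of different probe sets are not compared with each other, since each binds with its own strength. In these bulk samples, fewer cells of a type and less RNA per cell cannot be told apart.

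The sequences shown are short elements near the start of transcription that heat shock factor 1 and the ER stress factors are known to read. A match was not taken to place a gene in a stress response, nor its lack to exclude one. Windows from 250 bases before to 50 bases after the start were at hand for 59 of the 67 genes (RefSeq, GRCm38.p6). Hsp90aa1 and Hspa8 are among those without a window. The ER stress response element was searched as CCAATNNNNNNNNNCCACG on both strands. It was found in Hspa5, Hsp90b1 and Dnajc3, which is 5.08% of the 59 genes, against 0.137% of all 27025 genes with a window. All 3 code for proteins of the ER, and Hsp90b1 holds 2 matches, of which 1 is shown. Each stretch of 80 bases is shown 5′ to 3′ on the strand of the gene, with the element in capitals.
Hspa5, chr2:34771995-34772074, plus strand: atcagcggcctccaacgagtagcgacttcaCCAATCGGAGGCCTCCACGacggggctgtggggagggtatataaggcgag
Hsp90b1, chr10:86705607-86705686, minus strand: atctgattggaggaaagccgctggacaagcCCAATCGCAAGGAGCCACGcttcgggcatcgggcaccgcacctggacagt
Dnajc3, chr14:118937797-118937876, plus strand: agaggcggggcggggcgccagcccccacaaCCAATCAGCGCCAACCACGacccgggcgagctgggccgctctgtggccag

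The heat shock element is built from alternating GAA and TTC units, and was searched with 3 units as GAANNTTCNNGAA or TTCNNGAANNTTC. It was found in Hspd1, Hspe1, Hsph1 and Dnajb6, which is 6.78% of the 59 genes, against 0.662% of all genes with a window. A version with 2 units (GAANNTTC or TTCNNGAA), which overlaps the longer one, was in 16 of the 59 genes (27.1%), against 17.0% of all genes with a window. Among these 16 were Dnaja1, Fkbp4, Hspa1a, Hspa1b and Hspb1, and Dnajb1 held neither form. Hspd1 and Hspe1 lie head to head and share a stretch, which is shown once for each strand with the units in capitals. The last stretch, of Dnaja1, holds the 2-unit form alone.
Hspe1, chr1:55088053-55088082, plus strand: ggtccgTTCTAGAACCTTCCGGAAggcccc
Hspd1, chr1:55088053-55088082, minus strand: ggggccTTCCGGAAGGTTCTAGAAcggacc
Hsph1, chr5:149636279-149636308, minus strand: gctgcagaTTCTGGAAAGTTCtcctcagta
Dnajb6, chr5:29735844-29735873, plus strand: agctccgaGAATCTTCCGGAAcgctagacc
Dnaja1, chr4:40722333-40722362, plus strand: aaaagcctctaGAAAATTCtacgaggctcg
A match is a run of letters and was not tested as a binding site.

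No chaperone gene passed the test over both experiments, and the families differed in what they did within experiment 1. Of the 10 HSP70 and HSP110 genes carried in experiment 1, 3 were at the floor in both samples. The other 7 were all lower in the transgenic sample, with a median log2 ratio of -0.81. Of these, Hspa4l had its transgenic sample at the floor and could only come out lower. With both samples above the floor, 6 of 6 were lower, with a median of -0.71. The 6 FKBP genes were all higher, with a median of 0.38. Over all genes the median was -0.07, with 54.4% lower and 45.6% higher. In experiment 2 the corresponding medians were 0.01 for the HSP70 and HSP110 genes, 0.20 for the FKBP genes and -0.03 for all genes. Of all genes with a ratio in experiment 2, 54.6% were lower and 45.4% higher. Of the 67 genes, 12 were at the floor on every array that carries them, 42 had a ratio in experiment 1, 54 in experiment 2 and 41 in both.

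limma, fitted to the 2 ratios of each of 3237 genes, called 5 genes higher (0.154% of those tested) and 0 lower (0%) at an adjusted p under 0.05, and 0 of the 41 chaperone genes. At an unadjusted p under 0.05 it gave 2 of the 41 chaperone genes, or 4.88%, against 208 of all genes, or 6.43%. These 2 were Dnaja1 and Hspa4l, the latter with the transgenic sample of experiment 1 at the floor. The lowest adjusted p of any chaperone gene ran from 0.401 to 0.999 over the settings tried with limma. The p-values measure the spread between 2 pairs of pooled samples, and most of the variance estimate is shared over genes.

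**Figure D1:**
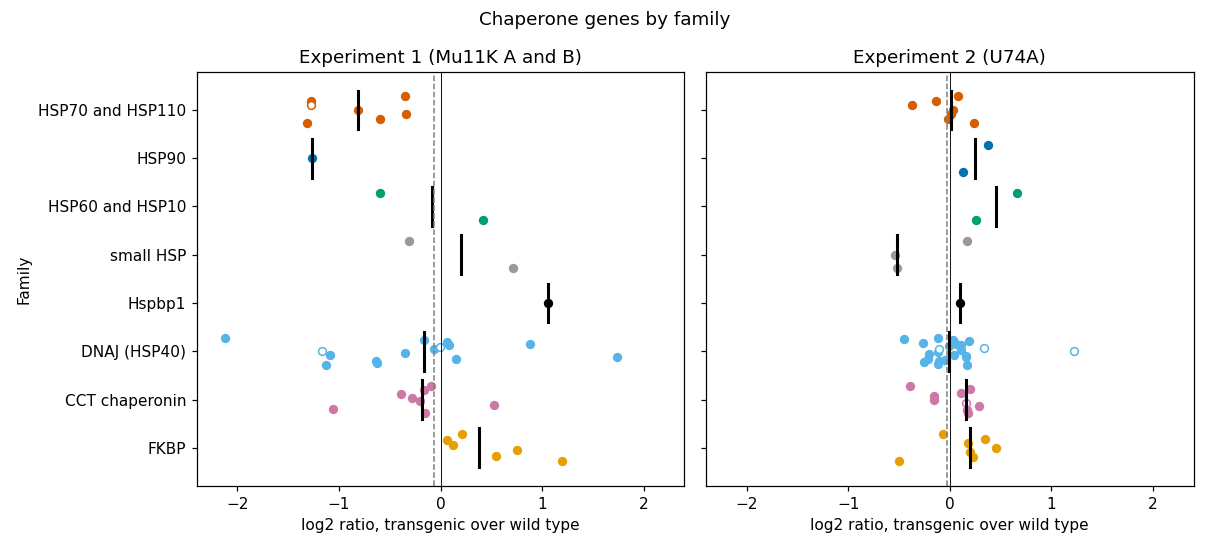
Each point is 1 chaperone gene, placed by its log2 ratio of transgenic over wild type in experiment 1 (left) and experiment 2 (right), in rows by family. Open points have a probe set at the floor in 1 sample, black bars are family medians and the dashed line is the median of all genes (-0.07 and -0.03). The 7 HSP70 and HSP110 genes lie left of 0 and the 6 FKBP genes right of 0 in experiment 1.

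A 2-fold difference or more was seen for 3 chaperone genes higher and 9 lower of 42 in experiment 1. Among all 3927 genes with a ratio there, 5.25% were 2-fold higher and 11.7% were 2-fold lower. The 3 higher genes were Dnajc15, Fkbp8 and Hspbp1, and the 9 lower were Dnaja1, Hsph1, Hspa4, Hspa4l, Hsp90aa1, Dnajc1, Dnajc3, Dnajc13 and Cct8. Hspa4l and Dnajc1 were kept through the wild-type sample alone, so that they could only come out lower. With probe sets above the floor on both arrays the count was 7. In experiment 2 Dnajc11 was the only chaperone gene of 54 past 2-fold, on the higher side, against 0.855% of 5377 genes higher and 0.446% lower. None of the 9 genes that were 2-fold lower in experiment 1 was 2-fold lower in experiment 2. A single pair of samples carries each of these counts, so they have no replicate check.

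HSP70 proteins come first. Hspa8 codes for the constitutive cytosolic HSP70 (HSC70). Its intensity on Mu11K A was 4169.5 in the transgenic and 5641 in the wild-type sample, then 8573 and 10158 for Mu11K B, with 1850.1 and 1839 in experiment 2. Both probe sets of experiment 1 were lower in the transgenic sample, by 1.35-fold and 1.18-fold, and that of experiment 2 was level.

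Hspa5 codes for BiP, the HSP70 of the ER and a main target of the ER stress factors. Its intensity on Mu11K A was 687 in the transgenic and 1091 in the wild-type sample, then 975 and 1899.9 for Mu11K B, with 1326 and 1296 in experiment 2. The transgenic sample was thus lower on both arrays of experiment 1 (gene log2 ratio -0.81) and level in experiment 2 (0.03). Hspa9, the HSP70 of mitochondria (mortalin), read 296 and 447 in experiment 1 and 1159 and 1169 in experiment 2. Hspa14, a ribosome-associated HSP70, read 879.8 and 1124, then 894 and 844. Hspa9 and Hspa14 were lower in the transgenic sample in experiment 1, and they differed by 1.01-fold and 1.06-fold in experiment 2.

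Several HSP70 genes were not read above the floor. Hspa1a and Hspa1b, the inducible pair, and the testis-rich Hspa1l and Hspa2 were under 100 in both samples on each array that carries them. The highest of these readings was 91.4, for Hspa1l in the wild-type sample of Mu11K A. The transcription factor Hsf2 and the HSP70 cofactor Bag3, a gene that heat shock factor 1 raises, were also under the floor on each array that carries them (both named after their values were seen).

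HSP110 proteins are distant relatives of HSP70 that serve it as exchange factors. Hspa4 (APG-2) was read by 2 probe sets in experiment 1, at 415 against 802 and 254 against 767, with the transgenic sample first. In experiment 2 its 4 probe sets read 609 against 611, 164 against 207, 328 against 355 and 1545 against 1637. All 6 probe sets were lower in the transgenic sample, by 3.02-fold at most in experiment 1 and by 1.26-fold at most in experiment 2. Over both experiments (n = 2) the log2 ratio averaged -0.70 ± 0.37 (limma SE; unadjusted p = 0.081, adjusted p = 0.796).

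Hspa4l (APG-1) was under the floor in the transgenic sample of experiment 1 against 242 in the wild type, hence at least 2.42-fold lower. The readings of experiment 2 were 460.4 and 596, or 1.29-fold lower. Its log2 ratio averaged -0.82 ± 0.36 over both (limma SE, n = 2 experiments; unadjusted p = 0.039, adjusted p = 0.769). This mean depends on the floor, and was -0.96 with a floor of 50 and -0.32 with a floor of 200. Hspa4l was not tested where both samples had to be above the floor. Hsph1 (HSP105), the heat-induced member, went opposite ways, at 265 against 659 in experiment 1 and 633 against 537 in experiment 2. Hspa4 and Hspa4l were thus lower in the transgenic sample in both experiments, and Hsph1 in experiment 1 alone.

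Counted by probe set, 8 of 8 HSP70 and HSP110 probe sets kept on Mu11K A and 2 of 2 on Mu11K B were lower in the transgenic sample. On U74A 6 of 10 were lower. The 8 include that of Hspa4l, kept through the wild-type sample alone, which could only come out lower. With both samples above the floor, 6 of 6 genes were lower in experiment 1, with a median of -0.71. The 7 genes were lower in experiment 1 under each scaling tried, with family medians between -0.75 and -0.81. The median was -0.60 with a floor of 50 or of 200, and -0.48 without a filter, where 3 genes at the floor enter with a ratio of 0. The all-gene median of experiment 1 moved from -0.07 to 0.06 under quantile normalization and to 0.04 under loess. Relative to it, the family stood at -0.75 with the scaling used here, at -0.82 with quantile normalization and at -0.84 with loess. Of these 7 genes, 3 were lower in both experiments and 4 were lower in experiment 1 and higher in experiment 2 (in experiment 2 alone, 3 of 7 were lower, 2 of 7 with median scaling and 4 of 7 with quantile normalization).

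**Figure D2:**
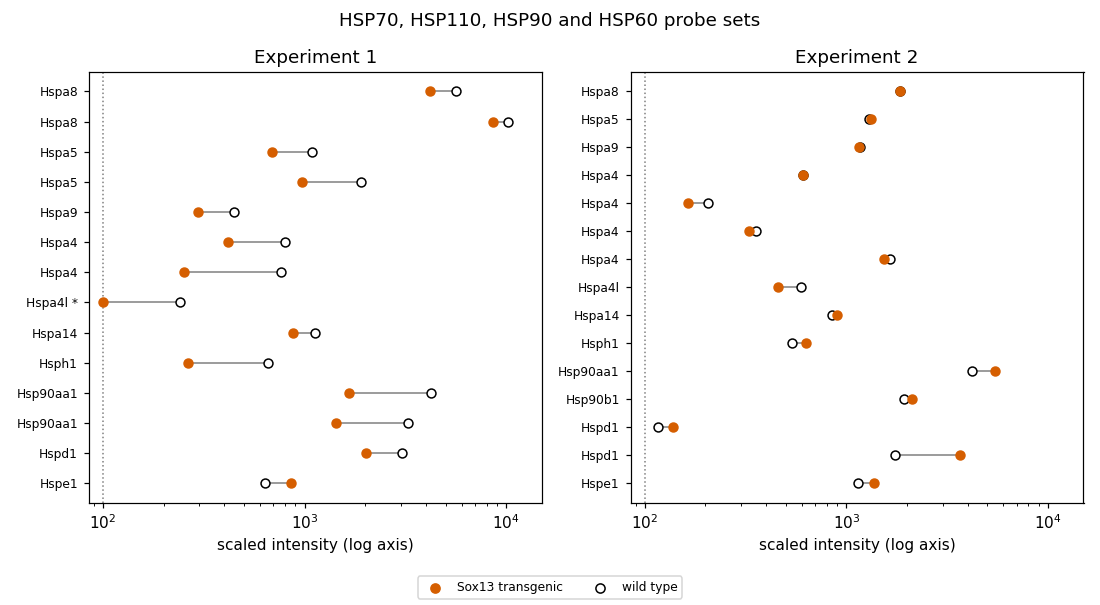
Scaled intensity (log axis) of each probe set of the HSP70, HSP110, HSP90, HSP60 and HSP10 genes, with 1 row per probe set. Filled points are the Sox13 transgenic and open points the wild-type sample, the dotted line is the floor of 100 and an asterisk marks a probe set at the floor in 1 sample. Hsp90aa1 is lower in the transgenic sample in both rows of experiment 1 and higher in experiment 2.

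HSP90 was read by Hsp90aa1, the inducible cytosolic form, and Hsp90b1 (GRP94), the form of the ER. Hsp90aa1 on Mu11K A was 1659 in the transgenic and 4229.8 in the wild-type sample, then 1431 and 3241 for Mu11K B, with 5469.9 and 4217 in experiment 2. The transgenic sample was 2.55-fold and 2.26-fold lower in experiment 1 and 1.30-fold higher in experiment 2. Over both experiments (n = 2) the log2 ratio averaged -0.44 ± 0.41 (limma SE; adjusted p = 0.882). Hsp90b1 was carried by U74A alone, at 2109 and 1929. The U74A ratios of the genes with an ER stress response element were 1.09-fold higher for Hsp90b1, 1.02-fold higher for Hspa5 and 1.16-fold lower for Dnajc3.

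DNAJ proteins bring clients to HSP70. Dnaja1, a farnesylated cytosolic member, showed the largest difference of any chaperone gene in experiment 1. Its intensity was 458 in the transgenic and 1995 in the wild-type sample on Mu11K B, with 2556 and 2768 in experiment 2. The transgenic sample was 4.35-fold lower in experiment 1 and 1.08-fold lower in experiment 2. Over both experiments (n = 2) the log2 ratio averaged -1.12 ± 0.44 (limma SE; unadjusted p = 0.024, adjusted p = 0.769). A single probe set carried each ratio.

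Dnajb1 (HDJ1), the stress-induced cytosolic member, was on the other side. It read 2989 against 1528 and 2296 against 1325 in experiment 1, with the transgenic sample first, and 1632 against 1429.9 in experiment 2. All 3 probe sets were higher in the transgenic sample, by 1.96-fold, 1.73-fold and 1.14-fold. Over both experiments (n = 2) the log2 ratio averaged 0.54 ± 0.35 (limma SE; adjusted p = 0.857).

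Dnajc3 (p58IPK), a DNAJ protein of the ER lumen, was 888 against 2459.98 on Mu11K A and 579.7 against 994 on Mu11K B. On U74A its 3 probe sets read 656 against 574, 228 against 361 and 1282 against 1456, so that 1 was higher and 2 were lower. The transgenic sample was lower in both probe sets of experiment 1. Dnajc13 (RME-8), which acts on endosomes, read 172 against 325 and 182 against 438 in experiment 1, and 333 against 359.7 in experiment 2. Dnajc1, a DNAJ protein of the ER membrane, was under the floor against 224 in experiment 1, or at least 2.24-fold lower. Its 2 probe sets on U74A had log2 ratios of -0.24 and, with the wild type under the floor, at least 0.03. These 3 genes were lower on average in both experiments, with limma adjusted p of 0.796 for Dnajc3 and 0.803 for Dnajc13.

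Dnajc15, a protein of the mitochondrial inner membrane, had the largest higher ratio of any chaperone gene in experiment 1. It was 3635 in the transgenic and 1088 in the wild-type sample, or 3.34-fold higher, and in experiment 2 it was 1327 against 1533, or 1.16-fold lower. Dnaja2, a cytosolic relative of Dnaja1, read 1257 against 1411 and 258 against 352, lower in the transgenic sample in both. Dnajc11, of the mitochondrial membranes, was 233 against a wild-type sample under the floor in experiment 2, or at least 2.33-fold higher, and it was under the floor in both samples of experiment 1. Dnajc11 and Dnajc1 are named here after their values were seen.

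Over the family, 10 of 15 DNAJ genes were lower in the transgenic sample in experiment 1 (median -0.17, and negative under each scaling tried) and 12 of 23 in experiment 2 (median -0.01, and 0.01 with median, quantile or loess scaling). These shares were 66.7% and 52.2%, against 54.4% and 54.6% of all genes. In experiment 1, 8 of 14 were lower with quantile normalization and 8 of 15 with loess. Ratios ran from -2.12 to 1.74 in experiment 1 and from -0.45 to 1.22 in experiment 2. Of the 14 DNAJ genes with a ratio in both experiments, 6 were lower in both, 3 higher in both, and 5 had opposite signs. Dnajb2, Dnajb5 and Dnajb8 were under the floor on U74A, which alone carries them. Dnajb6, with a 3-unit heat shock element, read 387 against 438, 1307 against 1458 and 702 against 629.8 in experiment 1, and 809 against 938 and 2174 against 1906 in experiment 2, with both signs in each. Dnajc8, a protein linked to splicing, is one of those that U74A alone carries, at 9726 against 10385 and 2293 against 2533.

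**Figure D3:**
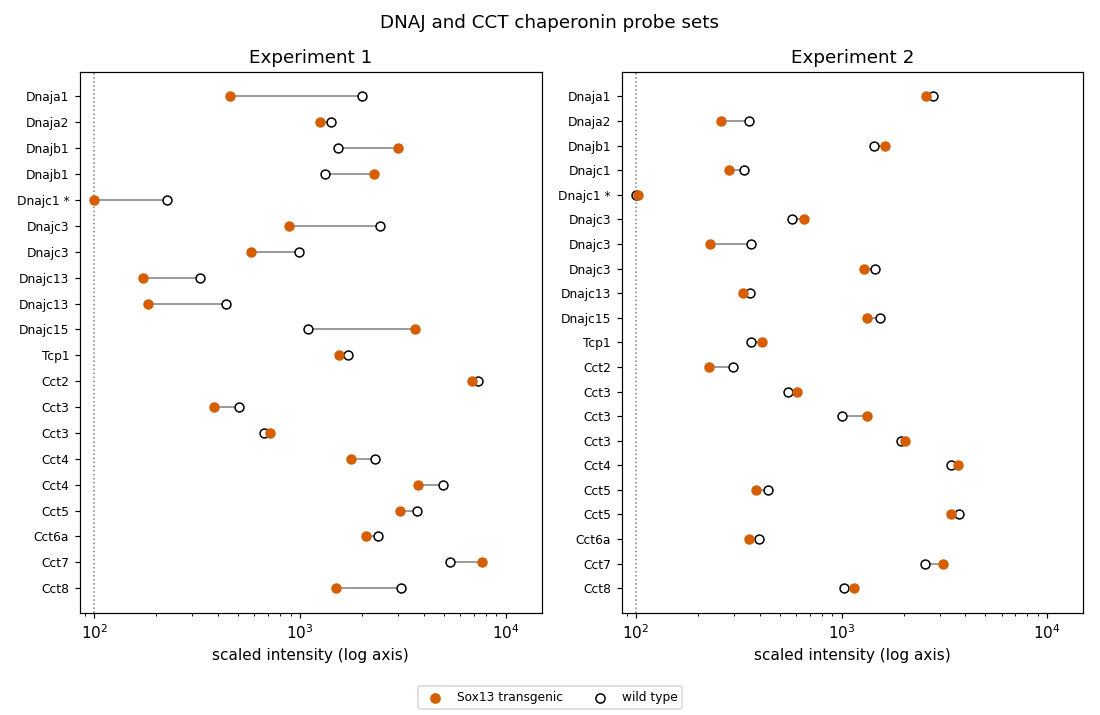
Scaled intensity (log axis) of probe sets of DNAJ genes and of the CCT chaperonin, with 1 row per probe set, filled points for the Sox13 transgenic and open points for the wild-type sample. The dotted line is the floor of 100 and an asterisk marks a probe set at the floor in 1 sample. Dnaja1 and Dnajc15 are the widest pairs of experiment 1, in opposite directions, and their pairs in experiment 2 differ by 1.08-fold and 1.16-fold.

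The HSP60 ring and its HSP10 lid fold proteins in mitochondria. Hspd1 (HSP60) was 2009.8 in the transgenic and 3031 in the wild-type sample of experiment 1. In experiment 2 a first probe set read 3678 and 1737, or 2.12-fold higher, and a second, near the floor, 138 and 117. Hspe1 (HSP10), which shares the divergent stretch printed above with Hspd1, read 854 and 638 in experiment 1 and 1364 and 1141 in experiment 2. Hspe1 was higher in the transgenic sample in both experiments (mean log2 ratio 0.34 ± 0.34, limma SE, n = 2 experiments; adjusted p = 0.888), and Hspd1 was lower in experiment 1 and higher in experiment 2. The 4 genes with a 3-unit heat shock element thus had 1 member higher in both experiments (Hspe1), 2 that were lower and then higher (Hspd1 and Hsph1), and Dnajb6 with probe sets of both signs.

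The CCT ring is built from 8 different subunits, coded by Tcp1 and the Cct genes, and folds actin and tubulin. In experiment 1, 7 of 8 genes were lower in the transgenic sample (6 of 8 with median scaling, quantile normalization or the brightest probe set), with a median log2 ratio of -0.18, and in experiment 2, 6 of 9 were higher, with a median of 0.16. Of all genes, 54.4% were lower in experiment 1 and 45.4% were higher in experiment 2. Cct6b, a form found in testis, was under the floor in experiment 1 and near it in experiment 2.

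Cct8 was the lowest and Cct7 the highest of the family in experiment 1. Cct8 was 1491 in the transgenic and 3102 in the wild-type sample of experiment 1, or 2.08-fold lower, and 1152 and 1028 in experiment 2, or 1.12-fold higher. Cct7 was 7713 and 5354, then 3114 and 2553, higher in the transgenic sample by 1.44-fold and 1.22-fold (mean log2 ratio 0.41 ± 0.34, limma SE, n = 2 experiments; adjusted p = 0.881). Cct5 was lower in both, at 3058 against 3724 in experiment 1 and at 384.5 against 437.6 and 3401 against 3725 in experiment 2. The 2 probe sets of Cct3 in experiment 1 differed in sign, at 382 against 505 and 711 against 669.97, and its 3 in experiment 2 were higher in the transgenic sample, by 1.05-fold to 1.32-fold. The other subunits, Tcp1, Cct2, Cct4 and Cct6a, had log2 ratios from -0.39 to -0.09 in experiment 1 and from -0.39 to 0.18 in experiment 2.

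The clients and helpers of CCT were read from lists outside the name rule. Of the actin and tubulin genes, 7 of 7 with a ratio were higher in the transgenic sample in experiment 1 (median 0.30) and 8 of 11 in experiment 2 (median 0.18), 0 of 7 tested were called with limma and 1 of 7 had an unadjusted p under 0.05. Of all genes, 45.6% were higher in experiment 1 and 45.4% in experiment 2. Tubb5, a beta-tubulin gene, was 12309 against 10162 and 13150 against 10476 in experiment 1, and 16498 against 14201 and 16155 against 14700.2 in experiment 2. Actb, cytoplasmic actin and the 1 with that p, was higher by 2.79-fold to 4.34-fold in 3 probe sets of experiment 1 and by 1.04-fold and 1.09-fold in 2 of experiment 2 (limma unadjusted p = 0.038, adjusted p = 0.769). Of the prefoldin, phosducin-like and tubulin cofactor genes, 4 of 5 were higher in experiment 1 and 5 of 9 in experiment 2, and limma called 0 of 4 tested.

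The FKBP genes lay mostly on the higher side. Fkbp4 (FKBP52) and Fkbp5 (FKBP51) bind HSP90 in steroid receptor complexes. Fkbp4 was 4212 in the transgenic and 2493 in the wild-type sample of experiment 1, and 2229.98 and 2052, and 481.5 and 396.8, in experiment 2. All 3 probe sets were higher in the transgenic sample, by 1.69-fold, 1.09-fold and 1.21-fold. Over both experiments (n = 2) the log2 ratio averaged 0.48 ± 0.35 (limma SE; adjusted p = 0.872). Fkbp5, which glucocorticoids raise, was 2023 and 1389.6 in experiment 1 and 4115 and 3518 in experiment 2, higher by 1.46-fold and 1.17-fold (0.38 ± 0.34, limma SE; adjusted p = 0.882).

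Fkbp8 (FKBP38), an anti-apoptotic protein of the mitochondrial outer membrane, differed in direction. It was 2371 in the transgenic and 1032 in the wild-type sample of experiment 1, or 2.30-fold higher, and 1879 and 2651 in experiment 2, or 1.41-fold lower. Fkbp3 (FKBP25), a nuclear member, was 2084 and 1917, then 484 and 353, higher in the transgenic sample in both. Fkbp1a (FKBP12), the target of the drug FK506, read 3955 against 3622 and 4748 against 3848 in experiment 1, and 3388 against 3557 in experiment 2. Fkbp2, a member of the ER, read 595 against 569, then 1792 against 1586.

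The 7 FKBP probe sets of experiment 1 were all higher in the transgenic sample, and 6 of 8 in experiment 2. The 6 genes were higher in experiment 1 under each scaling tried, with family medians between 0.32 and 0.45. Of these 6 genes, 4 were higher in both experiments and 2, Fkbp1a and Fkbp8, were higher in experiment 1 and lower in experiment 2. Fkbp7, Fkbp9, Fkbp11 and Fkbpl were under the floor on each array that carries them. Without a filter on low values, which adds genes at the floor with a ratio of 0, the medians were 0.22 and 0.

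**Figure D4:**
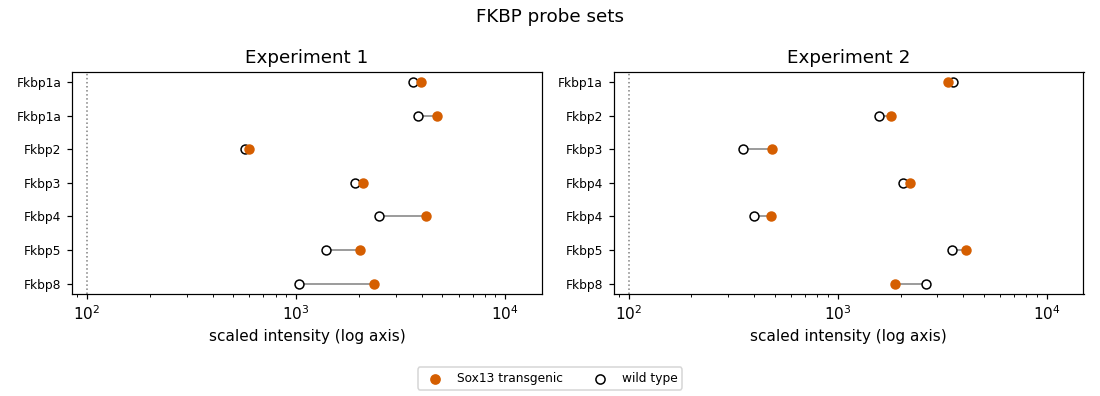
Scaled intensity (log axis) of the FKBP probe sets, with 1 row per probe set, filled points for the Sox13 transgenic and open points for the wild-type sample, and a dotted line at the floor of 100. The transgenic point is the right one in all 7 rows of experiment 1 and in 6 of 8 probe sets of experiment 2 (Fkbp1b, which U74A alone carries, is not drawn).

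Small HSPs are ATP-independent holders of unfolded protein. Hspb1 (HSP27), the widely induced member, was under the floor on each array that carries it, with no reading above 48.9. Hspb2 was 160.4 against 198 in experiment 1 and 151 against 220.3 in experiment 2, lower in the transgenic sample by 1.24-fold and 1.46-fold, close to the floor in both. Hspb8 (HSP22), a partner of Bag3, was 414 against 252 in experiment 1 and 131 against 188 in experiment 2, in opposite directions. Hspb11, placed in this family by its symbol alone, was carried by U74A alone, at 1004 against 895. Hspbp1, a nucleotide exchange factor of HSP70, was 379 against 181 in experiment 1, or 2.09-fold higher, and 421 against 394 in experiment 2, or 1.07-fold higher (mean log2 ratio 0.58 ± 0.36, limma SE, n = 2 experiments; adjusted p = 0.829).

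The 2 experiments can be set side by side over the 41 genes with a ratio in both. Of these, 10 were higher in both, 13 lower in both, 5 higher in experiment 1 and lower in experiment 2, and 13 the reverse. The shares were 24.4%, 31.7%, 12.2% and 31.7%, against 23.9%, 30.4%, 23.0% and 22.7% of all 3237 genes. Log2 ratios had an SD of 0.79 in experiment 1, 0.27 in experiment 2, and over all genes 0.78 and 0.33. Across the 41 genes, Pearson's r between the experiments was -0.05 and Spearman's rho 0.04, given as a description since genes of an array share the same 2 samples. Over all genes the values were 0.18 and 0.11.

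**Figure D5:**
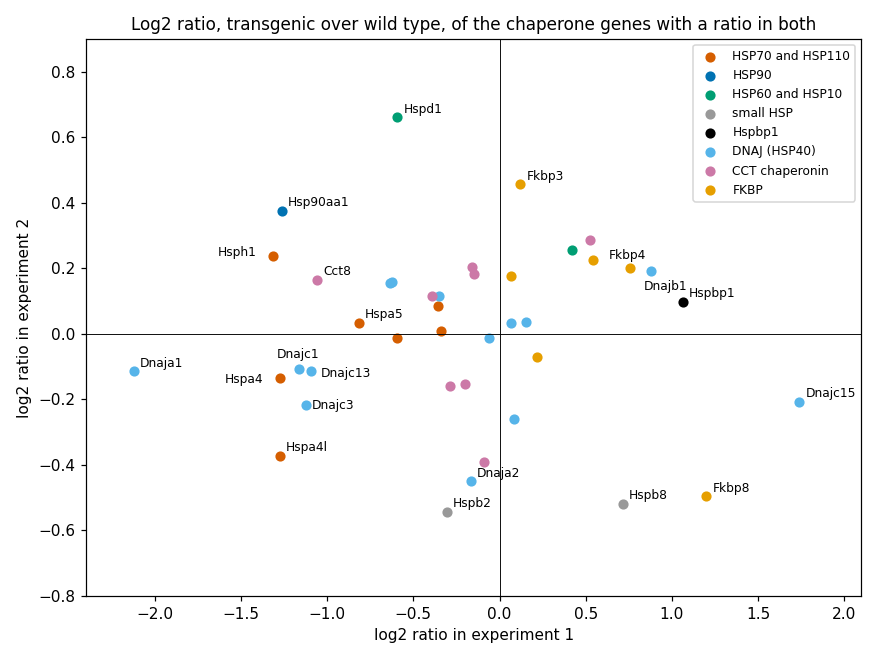
Log2 ratio of transgenic over wild type in experiment 1 (x axis) and experiment 2 (y axis) for the 41 chaperone genes with a ratio in both, coloured by family. The axes have different scales. Names are given where the ratio is past 0.7 in experiment 1 or 0.45 in experiment 2. The spread along x (SD 0.79) is wider than along y (SD 0.27), and 23 of the 41 genes lie in the 2 quadrants with the same sign.

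The other genes of the chaperone network gave 0 calls with limma in each list. Of the HSP70 and HSP90 cochaperones and heat shock factors, 20 of 29 listed genes were on the arrays and 11 were tested, with 0 at an unadjusted p under 0.05, and the medians were 0.01 in experiment 1 and 0.04 in experiment 2. No heat shock factor was among those tested. Hsf1 (heat shock factor 1) had no probe set with a single symbol, and Hsf2 was under the floor. Cdc37, which loads kinases onto HSP90, read 4329.6 against 3082.5 and 3231 against 3077, and Bag1, an exchange factor of HSP70, was higher in the transgenic sample in all 3 of its probe sets, by log2 ratios of 0.14 in experiment 1 and 0.33 in experiment 2. Chordc1, an HSP90 partner named here after its values were seen, was 798 against 1656 in experiment 1 and 2023 against 1943 and 2562 against 2443 in experiment 2, lower and then level.

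Of the ER folding and unfolded protein response genes, 9 of 14 were higher in experiment 1 (median 0.14) and 9 of 15 in experiment 2 (median 0.09), and limma called 0 of 12 tested, with 0 at an unadjusted p under 0.05. The shares of all genes that were higher were 45.6% and 45.4%. Canx (calnexin), the lectin chaperone of the ER, was lower in the transgenic sample in all 3 probe sets of experiment 1, by 1.21-fold to 4.19-fold, and level or lower in experiment 2. P4hb, a disulfide isomerase, was 984 against 887 and 836 against 576. Of the cyclophilins, the other proline isomerases, 2 of 3 were higher in experiment 1 and 3 of 5 in experiment 2, and limma called 0 of 2 tested.

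The glucocorticoid response list was read beside Fkbp5. Nr3c1, the glucocorticoid receptor itself, was under the floor against 246 in experiment 1, or at least 2.46-fold lower, and 211 against 264 in experiment 2 (limma unadjusted p = 0.043, adjusted p = 0.769). Over the list, 3 of 8 genes were higher in experiment 1 and 4 of 9 in experiment 2, and limma called 0 of 8 tested, with 1 at an unadjusted p under 0.05. Tsc22d3 (GILZ), a classical target, was under the floor on the array that carries it, and is named after its value was seen.

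The array pairs differed in several measures beside the chaperone genes. Sox13 itself was 5951 in the transgenic sample against under the floor in experiment 1 and 3832 against 599.6 in experiment 2. Fewer probe sets lay above the floor in the transgenic sample in experiment 1, at 53.7% against 57.4% on Mu11K A and 46.9% against 51.4% on Mu11K B, while U74A had 54.1% against 55.1%. Double-positive markers summed to 52354 in the transgenic and 60395 in the wild-type sample of experiment 1 and 100351 and 106113 in experiment 2, with 0 of 6 tested called. In experiment 1, 5 of these 6 were lower in the transgenic sample and in experiment 2, 4 of 7, against 54.4% and 54.6% of all genes. Rag2, a recombinase gene, was 459.8 against 1871 in experiment 1, or 4.07-fold lower, and 2119 against 2008 in experiment 2 (limma unadjusted p = 0.048, adjusted p = 0.774), the 1 of 6 with an unadjusted p under 0.05. Erythroid markers summed to 3118 and 887, then 2257 and 796, with Hba-a1 and Hbb-b2, both globins, called higher (2 of 4 tested) and Alas2 and Epor at the floor. The other 2 tested erythroid markers were lower in the transgenic sample in both experiments, Car2 by log2 ratios of -0.98 and -1.64 (limma unadjusted p = 0.0024, adjusted p = 0.431) and Gata1 by -0.52 and -0.07, all bounds since the transgenic sample was at the floor. In experiment 1, 1 of 2 Hba-a1 probe sets was level at 299 against 305. B cell markers summed to 5478 and 2930, then 2609 and 1792 (0 of 3 tested called, Cd22 at the floor). Cd74 was higher in the transgenic sample in both, by log2 ratios of 1.23 and 0.95 (limma unadjusted p = 0.0067, adjusted p = 0.643). It makes up most of the B cell sum of experiment 1, at 4243 against 1808. Cd79b (log2 ratio 0.58, then -0.23) and Ms4a1 (-0.14, then at least 0.83) differed in sign between the experiments. Cd79a was at the floor in experiment 1 and had a log2 ratio of 0.82 in experiment 2. Myeloid markers summed to 2553 and 2641, then 1447 and 849 (0 of 3 tested called). Of these, 2 of 4 with a ratio were higher in the transgenic sample in experiment 1 and 4 of 5 in experiment 2. Ctss was 2.49-fold and 2.37-fold higher (limma unadjusted p = 0.0022, adjusted p = 0.431). Lyz2, which makes up most of the sum of experiment 1, was 1627 against 2024 there and at least 2.55-fold higher in experiment 2. Cd68 had log2 ratios of -0.13 and 0.63, and Csf1r, read in experiment 2 alone, had -0.89. Sums of stroma and epithelium markers were 211 and 369.8, then 1079 and 1439.96 (0 of 1 tested called, Krt8, Epcam, Sparc and Col3a1 at the floor). A Col1a2 probe set made up most of the sum of experiment 2, at 751 against 1113. Another U74A probe set of that gene read 12 against 14.

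Immediate early genes, listed as a possible sign of handling, had medians of 0.58 in experiment 1 and 0.11 in experiment 2, with 0 of 11 tested called and 1, Nr4a1, at an unadjusted p under 0.05. In experiment 1, 7 of 12 were higher in the transgenic sample and 5 were lower. In experiment 2, 8 of 13 were higher and 5 were lower. Of all genes, 45.6% and 45.4% were higher. Another 5 listed genes in experiment 1 and 6 in experiment 2 were at the floor. Whether handling moved the immediate early genes was not tested. The 3 prime to 5 prime ratios of the actin control lay between 1.08 and 1.58 and those of the Gapdh control between 0.77 and 1.18, without the wild-type sample of Mu11K A, which has no value for them. The log2 ratio had a Spearman's rho with genomic length of -0.18 over the 42 chaperone genes of experiment 1 and -0.24 over the 54 of experiment 2, and of -0.30 and -0.06 over all genes. The part of these measures in the chaperone ratios was not tested.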

How the data were processed

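The deposited values are linear-scale intensities, 1 per probe set. Microarray Analysis Software is given in the series text as their source, and the submitters' processing notes list MAS5. The version used per array is not given in the sources used here, nor is its target intensity. Control probe sets and probe sets without both values were left out. Arrays were brought to a common 2% trimmed mean (500), floored at 100 and log2 transformed. Genes were named from the platform annotation by probe sets with 1 symbol, checked against RefSeq, which changed 0 symbols. Probe sets with 1 or both samples of a pair over the floor were kept, and their ratios averaged per gene and experiment. Of 157 chaperone probe sets 123 were kept, 7 through 1 sample alone.

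limma (version 3.58.1, R 4.3.3) tested the 2 ratios of a gene against 0, two-sided, with Benjamini-Hochberg adjustment over 3237 genes and 12.1 prior degrees of freedom. The fit was tested on simulated data with independent normal noise. It called 40.1% of genes changed 2-fold in both experiments, 99.3% of those changed 4-fold and 0.268% of unchanged genes. A gene that was not called may thus still differ by 2-fold. Pairs within an experiment have no test. The members and lists were chosen with earlier results of these data known. Described with every value are genes under an unadjusted p of 0.05, up to 4 genes per family, never at the floor, by the smaller of their 2 absolute ratios, genes 2-fold different in an experiment, and genes whose probe sets differ in sign by over 1 log2 unit. From each list up to 4 genes with the same sign in both experiments could be named. The design is paired by experiment: the transgenic and wild-type samples of a pair share the array type and are littermates. Many probe sets of experiment 1 carry a suffix for probes shared between similar transcripts (13 of 54 _f_at and 34 of 54 _s_at), so paralogs and pseudogenes may share signal there. The number of arrays limits the precision. Alternatives were other floors, filters, scalings (median, quantile and loess normalization), the brightest probe set and the unpaired fit.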

Additional observations from a re-analysis of the deposited data

Results flagged for a closer look

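For 7 chaperone genes the ratio lay on opposite sides of 0 in the 2 experiments and differed by at least 1 log2 unit. The log2 ratio of experiment 1 minus that of experiment 2 was 1.95 for Dnajc15, 1.70 for Fkbp8 and 1.23 for Hspb8, which were higher in the transgenic sample in experiment 1. It was -1.64 for Hsp90aa1, -1.55 for Hsph1, -1.25 for Hspd1 and -1.22 for Cct8, which were lower there. These differences were not tested, since each experiment has 1 sample of each genotype, and the experiments also differ in array type and probe sets. Both probe sets of Hsp90aa1 in experiment 1, on Mu11K A and on Mu11K B, had the same sign, and the other 6 genes rest on 1 probe set there.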

How the results depend on the processing

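limma called 0 chaperone genes under each of the 9 alternatives with a test, and the 25 genes described with every value kept the sign of their mean log2 ratio in 222 of 222 refits. The refits reuse the same samples, and the unpaired fit leaves the mean unchanged, so they are no independent check. Over all genes, limma called 5 genes with the settings used here, 0 at a floor of 50, 0 when no filter was set, 2 with probe sets above the floor on both arrays, 11 with median scaling, 15 with quantile normalization and 1 with the brightest probe set. The unpaired fit, with no replicate block, called 0 genes, and 0 chaperone genes had an unadjusted p under 0.05 in it. Chaperone genes 2-fold higher in experiment 2 numbered 0 with probe sets above the floor on both arrays and 2 with the brightest probe set, against 1. The FKBP median without a filter was 0.22 in experiment 1 and 0 in experiment 2, where genes at the floor enter with a ratio of 0. In experiment 1 without a filter the DNAJ median was -0.06, against -0.17. Chaperone genes 2-fold lower in experiment 1 numbered 6 with a floor of 200, 6 with loess and 7 with probe sets above the floor on both arrays, against 9. The DNAJ median of experiment 2 changed sign around 0, from -0.01 to 0.01 with median scaling. Leaving out an experiment leaves 1 ratio and no test, so the remaining value is the ratio of the other experiment, and for 10 of the 25 genes the 2 ratios differ in sign. Genes under the floor have only a bound.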

Other observations

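Probe sets annotated to both Dnajc19, of the mitochondrial import motor, and its pseudogene Dnajc19-ps were left out of the gene counts, since they name no single gene. On Mu11K A the reading was 1069 in the transgenic and 859 in the wild-type sample, a log2 ratio of 0.31. On U74A 1 probe set read 509 and 509.6, and the other was under the floor in the transgenic sample against 156 in the wild type. The 2 U74A probe sets thus gave log2 ratios of -0.003 and -0.64.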
